A study of Mus musculus with 8 samples.

Results

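Gene expression of 8 scavenger receptors was followed in dendritic cells, the antigen-presenting cells of the immune system, that had been grown from mouse bone marrow. The 8 genes, Marco, Msr1, Colec12, Olr1, Cd163, Stab1, Scarb1 and Cd68, were chosen by symbol, and each was found as a single row among the 55880 rows of the deposited RNA sequencing table. Marrow was taken from 6-week-old male C57BL/6 mice of the wild type and cultured over 6 days in 20 ng/mL GM-CSF and 10 ng/mL interleukin-4. The LMF group (4 libraries) then took up ITRs during a 24 h incubation and was exposed to a low-frequency magnetic field, and the Control group (4 libraries) was left untreated. RNA was collected 6 h after treatment, a time given for all 8 libraries. Libraries were assigned to groups by their titles, since their treatment field has one and the same entry. What ITR stands for is not given in the labels, but the title of the series names an intracellular magnetic torque-regulator. No group with only the ITRs or only the field was analysed here, so their effects cannot be told apart. Nothing in the labels ties the libraries to separate animals or cultures. The p-values therefore reflect only how far these libraries differ, which may be technical variation.

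Scavenger receptors are cell surface proteins of unrelated families that bind polyanionic or modified ligands, such as oxidised lipoproteins, bacterial surfaces, dying cells and unopsonised particles, and carry them into endosomes. Macrophages and some dendritic cells use them to clear particles and debris and to sample antigen. The class A receptors Marco, Msr1 and Colec12 have collagen-like stalks. Olr1 is a C-type lectin-like receptor, Cd163 is built of scavenger receptor cysteine-rich domains, Stab1 of fasciclin and EGF-like domains, and Scarb1 and Cd68 are membrane glycoproteins of other folds. The annotation column of the table gives the term scavenger receptor activity to 6 of the 8, all except Olr1 and Cd68. The term endocytosis is given to 5 and low-density lipoprotein particle binding to 4.

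Each of the 8 genes passed the filter on low counts. Marco, Olr1 and Msr1 rose, Stab1 fell by a small amount, and Cd163, Colec12, Scarb1 and Cd68 did not pass the test. Passing means an adjusted p under 0.05 in edgeR's quasi-likelihood test, with Benjamini-Hochberg adjustment over all 14074 tested genes. Fold changes are LMF over Control. Values after ± are the SD among the 4 libraries of a group, beside their mean, or the SE of a log2 fold change. Of all tested genes 17.5% were called higher and 16.9% lower, so calls on 3 of the 8 upwards and 1 downwards are set against a response that touched 34.4% of genes. At least 2-fold increases were rarer, at 1.82% of tested genes, and 2 of the 8 receptors, Marco and Olr1, had one. Levels are given as CPM, counts scaled to a common library total. The CPM of the groups did not overlap in 31.8% of tested genes, with LMF higher in 16.1% and lower in 15.7%. Among the 8 receptors they did not overlap in 4, with LMF higher in 3 and lower in 1. In bulk RNA a change in the number of cells of a type and a change in RNA per cell cannot be told apart.

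The bases before the start of 4 of the receptor genes are shown, 2 whose transcripts rose (Marco, Olr1), 1 that fell (Stab1) and 1 that did not pass (Cd68). They are 250 bases each from RefSeq on build GRCm38.p6, written in the direction of transcription and ending at the base before the RefSeq start. For Cd68, and for Cd163, which is not printed, no transcript of the mm10 GENCODE annotation begins with the bases that follow that start, so positions in them hold for the RefSeq start only. Capitals mark the AP-1 motif (TGANTCA) and the PU.1 core (GAGGAA), in either orientation. AP-1 factors are dimers of the Jun and Fos families, and PU.1 is the myeloid master factor.
Marco, chr1:120505025-120505274, minus strand: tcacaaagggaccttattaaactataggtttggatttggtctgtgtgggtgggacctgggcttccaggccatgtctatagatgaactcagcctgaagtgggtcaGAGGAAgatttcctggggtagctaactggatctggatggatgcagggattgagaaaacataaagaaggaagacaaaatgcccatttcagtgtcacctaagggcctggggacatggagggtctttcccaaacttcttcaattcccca
Olr1, chr6:129507166-129507415, minus strand: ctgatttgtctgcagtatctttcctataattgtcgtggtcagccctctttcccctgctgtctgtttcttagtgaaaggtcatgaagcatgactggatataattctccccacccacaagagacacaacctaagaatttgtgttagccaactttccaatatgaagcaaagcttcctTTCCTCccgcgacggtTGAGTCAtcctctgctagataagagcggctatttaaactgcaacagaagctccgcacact
Cd68, chr11:69666171-69666420, minus strand: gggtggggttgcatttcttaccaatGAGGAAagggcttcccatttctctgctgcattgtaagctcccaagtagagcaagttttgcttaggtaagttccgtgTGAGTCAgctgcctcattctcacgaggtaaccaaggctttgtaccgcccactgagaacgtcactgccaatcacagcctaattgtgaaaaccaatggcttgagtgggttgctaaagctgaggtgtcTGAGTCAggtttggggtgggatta
Stab1, chr14:31168642-31168891, minus strand: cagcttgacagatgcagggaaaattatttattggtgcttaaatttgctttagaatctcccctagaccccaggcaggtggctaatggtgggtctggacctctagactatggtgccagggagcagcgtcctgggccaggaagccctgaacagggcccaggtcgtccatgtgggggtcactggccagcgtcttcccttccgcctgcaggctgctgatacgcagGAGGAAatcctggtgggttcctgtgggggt
The AP-1 motif was found once in Olr1, from base -60 to -54 before the start, and at 2 places in Cd68, from -149 to -143 and from -24 to -18. It was found in 6.75% of the 32851 promoters of the table. The PU.1 core was found once in each of these 4 sequences and in 23.3% of all promoters. In Olr1 it lay on the opposite strand from -76 to -71. A 5th receptor in the promoter table, Cd163, held neither motif. Neither the core of the antioxidant response element (TGACNNNGC) nor the NF-kappaB consensus was found in any of the 5, against 10.2% and 3.9% of all promoters. Both strands were searched, and no matches overlapped. These are matches of letters in a short window, and binding was not measured. The promoter table was not matched for Msr1, Scarb1 and Colec12.

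LMF replicate 1 was the lowest of the 4 LMF libraries for 7 of the 8 receptors, Cd163 being the exception. For Stab1 (247 against 250 to 255 CPM) and Scarb1 (119 against 120 to 129 CPM) the gap was small. The share of all tested genes lowest in LMF replicate 1 was not counted. In this library, the summed CPM of 12 macrophage markers was 2695, against 2821 to 2914 in the other LMF libraries. The sum of 10 dendritic cell markers was 8648, against 7566 to 8093. The neutrophil sum was 1983, against 1755 to 1817, and the monocyte sum 1782, against 1787 to 1906. The part of these differences in the receptor values was not tested. Without this library the log2 fold changes were 1.75 for Marco, 1.48 for Olr1, 0.68 for Msr1 and -0.16 for Stab1, and all 4 passed. Over all fits without 1 library, the ranges were 1.61 to 1.75 for Marco, 1.34 to 1.48 for Olr1, 0.55 to 0.68 for Msr1 and -0.19 to -0.15 for Stab1.

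Per unit of gene length the receptors covered a wide range of levels. The deposited FPKM, in which counts are divided by library total and gene length, divides by a length that equals the merged exons of the mm10 GENCODE annotation for all 8 genes, from 1257 bases for Cd68 to 10288 bases for Stab1. In Control, Cd68, the late endosomal glycoprotein also called macrosialin, was highest at 460 ± 6.89 FPKM. Marco followed at 43.8 ± 1.78 FPKM, Msr1 at 32.2 ± 1.12, Stab1 at 27.4 ± 0.897, Scarb1 at 14.9 ± 0.391 and Olr1 at 4.02 ± 0.441. Colec12 at 1.54 ± 0.176 FPKM and Cd163 at 1.38 ± 0.228 FPKM were lowest, and their ranges over the libraries overlapped. Every other pair of neighbours in this order was apart in all 4 Control libraries. The order was the same in LMF, with Marco at 138 ± 17.7 FPKM, Msr1 at 48.3 ± 5.66, Olr1 at 10.6 ± 1.19 and Cd68 at 452 ± 18.3, and Colec12 and Cd163 again overlapped there.

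**Figure D1:**
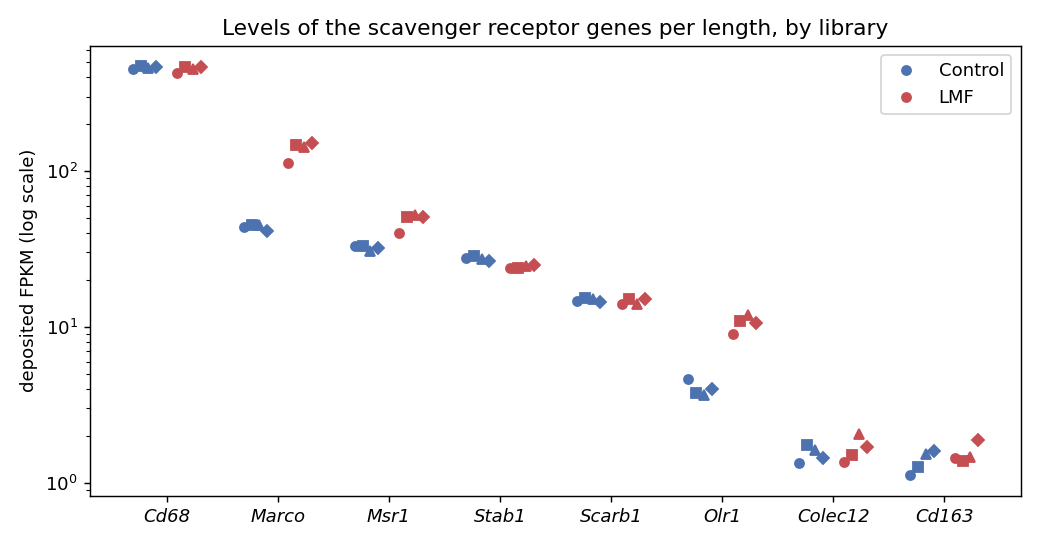
Deposited FPKM (log axis) of the 8 scavenger receptor genes, ordered by their Control mean, with 1 point per library and replicate numbers 1 to 4 as circle, square, triangle and diamond. Marco moves from 41.4 to 45.3 FPKM in Control to 112 to 150 FPKM in LMF and keeps its rank below Cd68.

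Marco, a receptor for bacteria and unopsonised particles, changed most among the 8. Marco was measured at 82.8, 86.8, 87.1 and 80.3 CPM in Control replicates 1 to 4 and at 215, 288, 273 and 289 CPM in LMF replicates 1 to 4. All LMF libraries lay above all Control libraries, and LMF replicate 1 was the lowest of the LMF libraries. The mean rose from 84.2 ± 3.26 to 266 ± 35.0 CPM, a log2 fold change of 1.66 ± 0.10 or 3.16-fold (95% interval 2.69 to 3.71, adjusted p = 4.98e-06, edgeR). Among the 14074 tested genes 84 had a log2 fold change at least as high, Marco included. Against a fold change of 1.5 in the same model Marco still passed (adjusted p = 0.000135). The gene (ENSMUSG00000026390) lies on chromosome 1 from 120402267 to 120432753 on the minus strand in the table's own coordinates, whose build is not named in the file.

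Msr1, the class A receptor for acetylated and oxidised LDL that also binds bacterial surface lipids, rose less than Marco. Msr1 was measured at 206, 209, 194 and 206 CPM in the Control libraries and at 253, 324, 331 and 323 CPM in the LMF libraries. The groups did not overlap, and LMF replicate 1 stood well below the other 3 LMF libraries. The mean rose from 204 ± 6.96 to 308 ± 36.6 CPM, with a log2 fold change of 0.60 ± 0.08 or 1.51-fold (95% interval 1.33 to 1.72, adjusted p = 0.000471, edgeR). Against a fold change of 1.5 it did not pass (adjusted p = 1.0). Without LMF replicate 1 the log2 fold change was 0.68. Msr1 (ENSMUSG00000025044) lies on chromosome 8 from 40034726 to 40095714 on the minus strand.

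The balance between the class A receptors shifted. The ratio of Marco to Msr1 in FPKM was 1.29 to 1.48 over the Control libraries and 2.71 to 2.95 over the LMF libraries. LMF replicate 1, low for both genes, had a ratio of 2.79, inside the range of the other LMF libraries. Colec12, a collectin that also binds sugars and is known from endothelial and stromal cells, was a low-level member, with 212 to 335 counts per library. It was measured at 11.7 to 15.2 CPM in Control and at 11.9 to 18.1 CPM in LMF, and the groups overlapped. Its log2 fold change of 0.12 ± 0.11 did not pass (adjusted p = 0.451, edgeR), and the 95% interval of the fold ran from 0.926 to 1.28. Without LMF replicate 3, the highest library, it was -0.0049. Colec12 (ENSMUSG00000036103) lies on chromosome 18 from 9707595 to 9882644 on the plus strand.

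Olr1, the endothelial and macrophage receptor for oxidised LDL also called LOX-1, rose from a low level. Olr1 was measured at 16.4, 13.5, 13 and 14.4 CPM in Control and at 32.1, 39.6, 42.4 and 38.1 CPM in LMF. The groups did not overlap, and LMF replicate 1 was again the lowest of its group. The mean went from 14.3 ± 1.5 to 38.0 ± 4.33 CPM (log2 fold change 1.40 ± 0.09, 2.65-fold, 95% interval 2.34 to 3, adjusted p = 6.21e-15, edgeR). The ratio of Olr1 to Msr1 in FPKM was 0.114 to 0.141 in Control and 0.209 to 0.227 in LMF, without overlap. The ratio of Marco to Olr1 overlapped between the groups, at 9.36 to 12.4 in Control and 11.9 to 14.1 in LMF. Olr1 (ENSMUSG00000030162) lies on chromosome 6 from 129462207 to 129484128 on the minus strand.

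**Figure D2:**
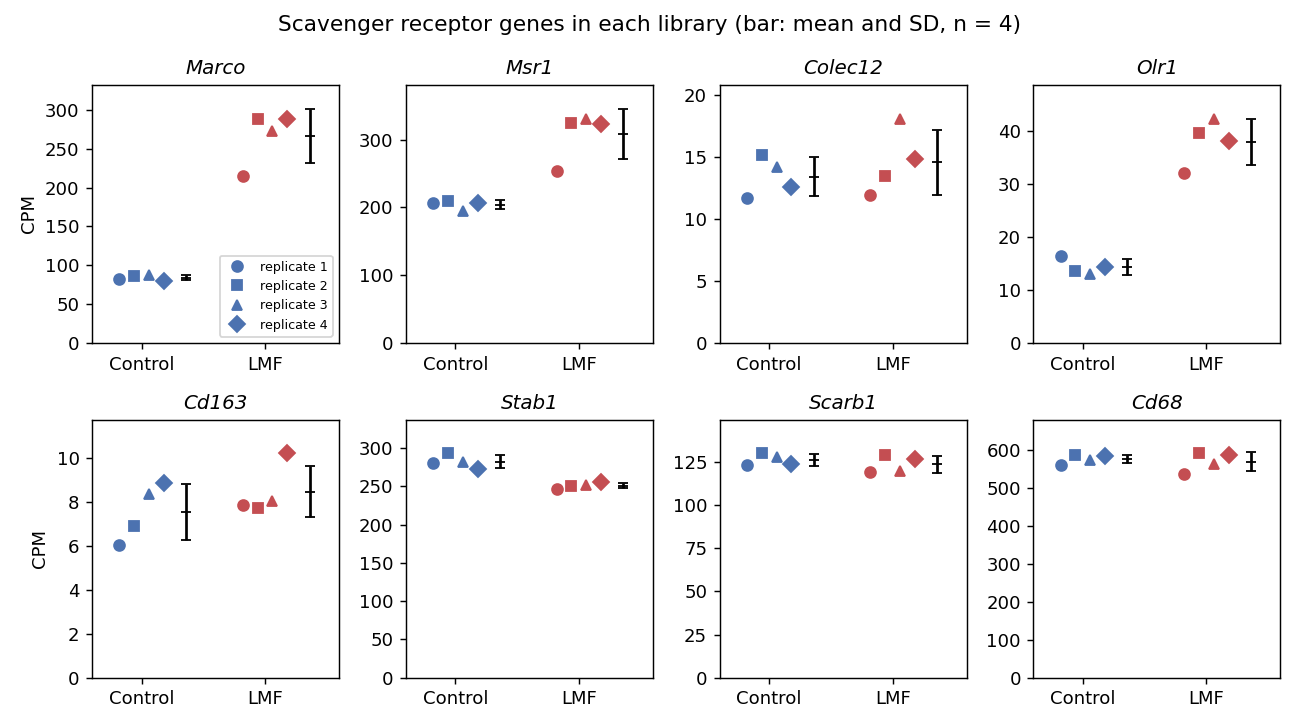
CPM of each scavenger receptor gene in each library, with the mean and SD of 4 libraries beside the points, symbols for the replicate numbers, and axes from 0. The LMF points of Marco, Msr1 and Olr1 lie above all Control points with LMF replicate 1 lowest, those of Stab1 lie slightly below, and the groups overlap for the other 4 genes.

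Stab1, or stabilin-1, which takes up acetylated LDL and the matrix protein SPARC in sinusoidal endothelium and in alternatively activated macrophages, fell slightly. It was measured at 280, 293, 282 and 273 CPM in Control and at 247, 250, 251 and 255 CPM in LMF. The groups did not overlap, and the spread within each was small. The mean went from 282 ± 8.59 to 251 ± 3.36 CPM (log2 fold change -0.17 ± 0.04, 0.89-fold, 95% interval 0.845 to 0.938, adjusted p = 0.000449, edgeR). Of the 2381 genes called lower, 2087 fell by at least as much. Stab1 (ENSMUSG00000042286) lies on chromosome 14 from 30860970 to 30890598 on the minus strand, and 112 of its bases are shared with Nt5dc2 on the opposite strand. Nt5dc2 was itself lower (log2 fold change -0.34 ± 0.05), and whether the counting used strand is not stated, so reads of that overlap cannot be assigned.

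Cd163, a receptor for haemoglobin and a marker of resident and alternatively activated macrophages, was the member with the fewest counts, 129 to 169 per library. It was measured at 6.05 to 8.84 CPM in Control and at 7.72 to 10.2 CPM in LMF, with overlapping groups. Its log2 fold change was 0.17 ± 0.14 (adjusted p = 0.368, edgeR), and the interval of the fold, 0.926 to 1.37, leaves room for a small change. Cd163 (ENSMUSG00000008845) lies on chromosome 6 from 124281615 to 124307486 on the plus strand.

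Scarb1 and Cd68 were each at close to the same level in Control and LMF. Scarb1, the HDL receptor that moves cholesteryl esters into and cholesterol out of cells, averaged 126 ± 3.38 CPM in Control against 124 ± 5.01 CPM in LMF. Its fold of 0.983 had an interval of 0.926 to 1.04 (adjusted p = 0.708, edgeR). Cd68 was 577 ± 11.7 and 570 ± 25.5 CPM, a fold of 0.988 with an interval of 0.938 to 1.04 (adjusted p = 0.761, edgeR). Neither interval reaches the fold of Msr1 or that of Stab1. Scarb1 (ENSMUSG00000037936) lies on chromosome 5 from 125354151 to 125418158 and Cd68 (ENSMUSG00000018774) on chromosome 11 from 69555039 to 69556979, both on the minus strand. For 7 of the 8 genes, all but Colec12, the table's start and end differ from those of the mm10 annotation.

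**Figure D3:**
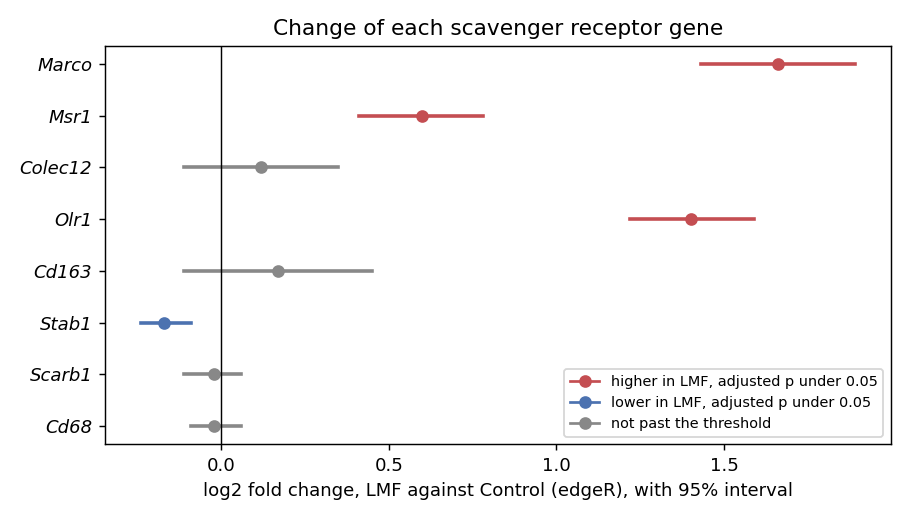
Log2 fold change of LMF against Control for each scavenger receptor gene (point) with its 95% interval (line) from edgeR's quasi-likelihood fit. The intervals of Marco (1.43 to 1.89) and Olr1 (1.22 to 1.59) lie above that of Msr1 (0.41 to 0.78), and Stab1 lies just below 0.

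Within the 8 genes, the make-up of the summed FPKM moved towards Marco. Cd68 made up 78.2% to 79.1% of the sum in Control and 64.4% to 68.0% in LMF, although its own level did not pass the test. Marco made up 7.11% to 7.76% in Control and 17.8% to 20.8% in LMF. With Cd68 left out, the other 7 genes summed to 121 to 129 FPKM in Control and 201 to 255 FPKM in LMF, and Marco alone held 34.1% to 36.2% and 55.4% to 58.9% of these sums. These are shares of transcripts per length, and they say nothing of protein on the cell surface.

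The cell type markers showed a myeloid culture with dendritic cell and macrophage features. All 10 dendritic cell markers were tested, led by the class II genes Cd74 at 3335 ± 79.9 CPM and H2-Aa at 1787 ± 56.4 CPM in Control. Of these 10, 6 rose and 1, Cd74, fell (log2 fold change -0.11 ± 0.04). Beside this and the other marker lists stand 17.5% of all tested genes called higher and 16.9% lower. Of 12 macrophage markers 8 were tested, 6 of which fell and none of which rose, and their summed level was 3025 to 3262 CPM in Control and 2695 to 2914 CPM in LMF. The most abundant, the growth factor receptor Csf1r (1819 ± 63.8 and 1793 ± 59.0 CPM) and Adgre1, the F4/80 antigen (387 ± 14.3 and 400 ± 20.6 CPM), did not pass. The resident macrophage markers Timd4, Vsig4, Folr2 and Lyve1 had means of at most 0.21 CPM in both groups. Marco and Msr1, often used as macrophage genes, thus went the other way from the macrophage markers that changed, and a part of cell composition in either was not tested.

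Of 6 monocyte markers 3 rose and 2 fell, and their sum was 2494 to 2642 CPM in Control and 1782 to 1906 CPM in LMF. The most abundant, Fn1 (1342 ± 40.8 and 913 ± 80.6 CPM) and Ccr2 (752 ± 28.6 and 335 ± 9.13 CPM), fell, and Cx3cr1 (15 ± 2.09 and 33.4 ± 3.75 CPM), Ly6c2 (361 ± 8.82 and 460 ± 32.4 CPM) and Plac8 (45.3 ± 3.71 and 56 ± 2.82 CPM) rose. Of 9 neutrophil markers 4 rose, 1 fell and 4 did not pass. Their sum was 1608 to 1679 CPM in Control and 1755 to 1983 CPM in LMF. Of the most abundant, Ngp did not pass (log2 fold change 0.05 ± 0.04) and S100a9 rose (0.22 ± 0.04). Endothelial and stromal cells are known for Stab1, Scarb1 and Colec12. Of 8 endothelial markers only Vwf (138 ± 7.47 and 121 ± 8.38 CPM) and Kdr (2.48 ± 0.277 and 5.90 ± 0.861 CPM) were tested, and the sum was 134 to 150 CPM in Control and 120 to 138 CPM in LMF. Emcn had 0 counts in every library and Stab2, the other stabilin, was at 0.422 ± 0.211 and 0.444 ± 0.289 CPM. The sum of 8 fibroblast markers was 15.1 to 16.7 CPM in Control and 23.8 to 26.2 CPM in LMF. Thy1, at 11.8 ± 0.594 and 19.1 ± 0.252 CPM, made up most of it. Of the 4 tested fibroblast markers 3 rose and 0 fell, Thy1 (log2 fold change 0.69 ± 0.09), Pdgfrb (0.69 ± 0.26, from 1.62 ± 0.358 to 2.61 ± 0.741 CPM) and Col1a2 (1.07 ± 0.34, from 0.779 ± 0.283 to 1.62 ± 0.19 CPM).

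Other scavenger receptors went both ways. For this list and those in the paragraphs below, the shares over all tested genes were 17.5% called higher and 16.9% lower. Of 18 listed, 17 were found in the table and 12 were tested, of which 3 rose, 3 fell and 6 did not pass, with a median log2 fold change of -0.02 beside a median near 0 for all tested genes. Cd36, the class B receptor for oxidised LDL and fatty acids, rose from 492 ± 21.2 to 713 ± 101 CPM (0.54 ± 0.11, adjusted p = 0.00984, edgeR). LMF replicate 1 had 562 CPM of Cd36 where replicates 2 to 4 had 761 to 765, all above the Control range of 466 to 517 CPM. Cd14, the lipopolysaccharide co-receptor, rose by 0.56 ± 0.04 and Cxcl16, a chemokine whose membrane form binds oxidised LDL, by 0.22 ± 0.04. Among those that fell were Mrc1, the mannose receptor (-0.43 ± 0.08), Scarb2, a lysosomal relative of Scarb1 (-0.33 ± 0.04), and Lrp1, a large endocytic receptor (-0.24 ± 0.04). Scara5 had 0 counts in every library.

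Of 12 ligands of scavenger receptors, all tested, 4 rose, 2 fell and 6 did not pass, with a median of 0.11. Saa3, an acute phase protein of HDL, rose from 29.7 ± 2.24 to 159 ± 4.18 CPM (2.42 ± 0.05). Hp, haptoglobin, which binds haemoglobin, rose from 217 ± 7.88 to 521 ± 3.06 CPM (1.27 ± 0.04). S100a8, a calcium-binding alarmin that is also on the neutrophil list, rose by 0.36 ± 0.05. Apoe, the lipoprotein ligand, was lower (-1.28 ± 0.05), as was Chil3, a chitinase-like protein (-0.32 ± 0.04). Sparc, a ligand of Stab1, was near the detection limit at 0.668 ± 0.295 and 0.884 ± 0.261 CPM.

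Of 20 genes of lipoprotein and cholesterol handling, which lies downstream of Msr1, Olr1, Cd36 and Scarb1, 4 rose, 7 fell and 9 did not pass (median 0.03). The oxysterol receptor Nr1h3 rose from 4.77 ± 0.567 to 7.33 ± 0.962 CPM (0.62 ± 0.15) and the fatty acid carrier Fabp4 by 0.34 ± 0.08. Pltp, a phospholipid transfer protein, was at -0.71 ± 0.04 and Plin2, the coat protein of lipid droplets, at -0.33 ± 0.04, beside Apoe, which is on both lists. Both passed. Without LMF replicate 1, 7 genes were called higher instead of 4.

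Of 14 tested genes of haemoglobin and haem clearance, which lies downstream of Cd163, 6 rose, 4 fell and 4 did not pass (median 0.13). Hmox1, which breaks down haem, rose from 304 ± 11.2 to 875 ± 41.4 CPM (1.52 ± 0.04), and Nfe2l2, the transcription factor NRF2, by 0.60 ± 0.04, beside Hp, which is on both lists. Those that fell included the iron exporter Slc40a1 (-0.55 ± 0.05), the haem exporter Flvcr1 (-0.19 ± 0.06) and the biliverdin reductase Blvra (-0.18 ± 0.05). Cd163 itself, the entry point of the route, did not pass.

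Of 20 tested genes of endocytosis, sorting and shedding 5 rose, 4 fell and 11 did not pass (median 0.03). Adam17, a sheddase of membrane proteins, rose from 180 ± 1.24 to 278 ± 11 CPM (0.63 ± 0.04). The early endosome tether Eea1 rose by 0.26 ± 0.05 and the clathrin light chain Cltb by 0.39 ± 0.09. The clathrin adaptor Dab2 (-0.45 ± 0.06), the lysosomal protein Lamp1 (-0.21 ± 0.03) and Gga3 (-0.25 ± 0.05), a sorting adaptor of the trans-Golgi network, fell. Without LMF replicate 1, 8 genes were called higher instead of 5.

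Of 24 myeloid transcription factors, 11 rose, 7 fell and 6 did not pass (median 0.07). Over all tested genes 17.5% were called higher and 16.9% lower. Jun, a subunit of AP-1, rose from 50.8 ± 3.34 to 106 ± 9.72 CPM (1.06 ± 0.06), Hif1a by 0.67 ± 0.04 and Junb by 0.59 ± 0.04. Maf, a factor of macrophage identity, fell from 87.8 ± 2.25 to 38.6 ± 2.84 CPM (-1.19 ± 0.06), and Usf1 was at -0.39 ± 0.05 and passed. Spi1, which encodes PU.1, had means of 480 ± 22.2 and 464 ± 20.3 CPM and did not pass (adjusted p = 0.386, edgeR).

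**Figure D4:**
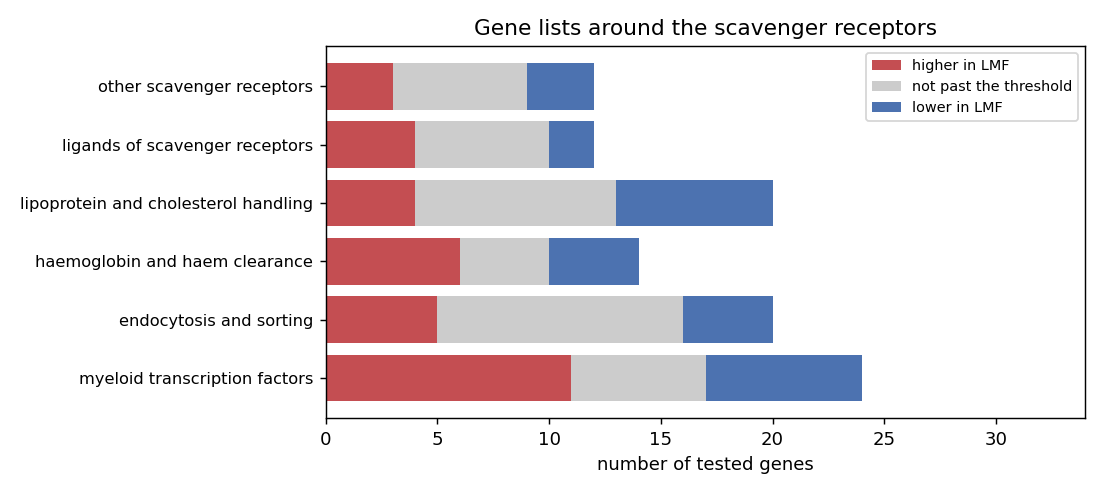
Number of tested genes in each of the 6 gene lists that rose (red), did not pass (grey) or fell (blue) in LMF by edgeR's test. The myeloid transcription factors hold 11 that rose and 7 that fell, and the other scavenger receptors 3 and 3. Over all tested genes 17.5% rose and 16.9% fell.

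The genes nearest in pattern to each receptor were taken as those with the smallest root mean square difference of log2 CPM over the 8 libraries, after each gene's own mean was removed. For Msr1 these were Mmp12, macrophage elastase (0.037), and Cd36 (0.048), where the median over 9971 candidate genes was 0.336. Mmp12 was at 1905 to 2163 CPM in Control, with 2491 CPM in LMF replicate 1 where replicates 2 to 4 had 3343 to 3453. For Marco they were Il1a, the cytokine interleukin-1 alpha (0.082), and Myo10, an unconventional myosin of filopodia (0.108). For Olr1 they were Mdm2, the ubiquitin ligase of p53 (0.097), and Serpinb2, a plasminogen activator inhibitor (0.108). All 6 had the same step between the groups and a lower value in LMF replicate 1 than in the other LMF libraries, which are features that the choice by likeness picks out. For Stab1 the nearest were Pde1b (0.025) and Arhgap4 (0.026), both called lower. For Scarb1 and Cd68 they were Colgalt1 and Arpc1b, and Cpsf2 and Ubl3, at 0.019 to 0.021, and for Cd163 and Colec12 they were Cdyl2, Vta1, Pdp1 and Rsl1d1, at 0.076 to 0.095. None of these 8 passed.

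**Figure D5:**
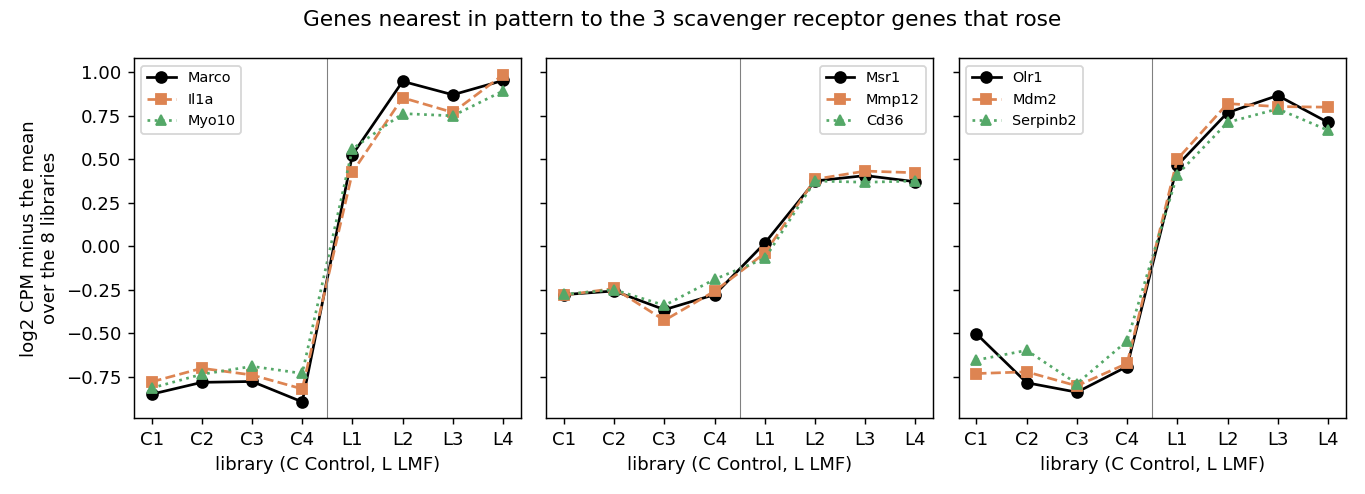
Log2 CPM minus the gene's mean over the 8 libraries for Marco, Msr1 and Olr1 (black) and the 2 genes nearest to each in pattern (orange and green), by library (C1 to C4 Control, L1 to L4 LMF). The black and coloured lines step up together, and L1 is the lowest LMF library in every line.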

How the data were processed

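RNA enriched for polyadenylated transcripts was sequenced in 4 Control and 4 LMF libraries, which were grouped by their titles. Their treatment field has one and the same entry. A MagRM group named in the series' design was not analysed here. Trimmomatic, HISAT2 2.0.5, HTSeq, DESeq2 and the build mm10 are listed, without their roles, per the submitters' processing notes. The authors deposited raw read counts per gene and, beside them, FPKM values. Totals were 17309368 to 21585750 counts in Control and 16592672 to 18532878 in LMF.

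edgeR 4.0.16 (R 4.3.3) was run on the counts with filterByExpr, TMM scaling and a robust quasi-likelihood F test with group as the only term, over 14074 genes, 464 of the table's rows having no Ensembl ID. Dividing the size of a log2 fold change by the root of its F gives the SE, and CPM are TMM-scaled. The test was checked on simulated counts. Pairs of libraries had a chi-square per degree of freedom of 3.498 to 7.797 within groups and 26.63 to 35.16 between, so none looked like a copy of another. Fixed rules named the 8 receptors, up to 3 genes called in each direction of each list, the 2 most abundant genes of each marker list with any at 0 counts, and the 2 genes nearest to each receptor in pattern. They gave 69 genes, of which 2 are not reported here. Spi1, Sparc, Stab2, Cx3cr1, Ly6c2, Plac8, Col1a2, Timd4, Vsig4, Folr2, Lyve1 and Nt5dc2 were named outside them, with their values seen. The receptors, lists and rules were chosen with earlier results of these data known. Alternatives were DESeq2 (1.42.0) size factors, the DESeq2 test, limma-voom (limma 3.58.1), library size without TMM, other filters, a replicate block, leaving out each library, limma-trend on log2 FPKM, and a test against a fold change of 1.5.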

Additional observations from a re-analysis of the deposited data

Results flagged for a closer look

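By Dixon's test 1 library was far from the rest of its group in 10 of 136 groups of values. Chance flags about 1 in 20 groups that are independent of each other, and these are not. Mmp12 and Cd36 were picked for their likeness to Msr1, and Mdm2 for its likeness to Olr1, low values in LMF replicate 1 included. In LMF replicate 1 Msr1 had 253 CPM, where the others had 323 to 331. Cd36 was at 562 CPM against 761 to 765 CPM, Mmp12 at 2491 CPM against 3343 to 3453 CPM and Mdm2 at 343 CPM against 422 to 428 CPM. Gga3, at 102 CPM against 89.9 to 91.2 CPM, and Ngp, at 641 CPM against 577 to 585 CPM, were higher in it. LMF replicate 4 had 10.2 CPM of Cd163, where the others had 7.72 to 8.04. LMF replicate 2 had 596 CPM of Cd14, where the others had 560 to 565. Control replicate 3 had 345 CPM of Nfe2l2, where the others had 354 to 355. Control replicate 2 had 409 CPM of Adgre1, where the others had 378 to 383.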

How the results depend on the processing

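Under the alternatives, 327 recomputed values kept their direction and their side of the threshold, or, for counts, stayed within 1.5 times. The size of the adjusted p-values varied widely, so their order between genes depends on the processing. For Marco in edgeR it was 4.98e-06 in the main fit, 0.000104 without Control replicate 1 and 1.88e-70 without the filter. For Olr1 in edgeR it was 6.21e-15, 1.67e-14 and 9.11e-62 in the same fits. Against a fold change of 1.5, 240 genes were called higher and 123 lower, Marco and Olr1 stayed called, Msr1 (log2 fold change 0.60) and Stab1 (-0.17) did not, and 0 receptors were called lower. These follow from the stricter null. Without LMF replicate 1 the lipoprotein list had 7 genes called higher and the endocytosis list 8, and Cd68, never called, turned to a log2 fold change of 0.0084. Without LMF replicate 3 Colec12, also never called, turned to -0.0049. The causes were not tested.

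Over the fits without 1 library, 2182 to 2516 genes were called higher and 2125 to 2531 lower, and 3 receptors were called higher and 1 lower in each. Log2 fold changes were 0.07 to 0.25 for Cd163, -0.05 to -0.0085 for Scarb1, -0.04 to 0.0084 for Cd68 and -0.0049 to 0.21 for Colec12. The lists had 3 higher and 3 lower for other scavenger receptors, 4 to 5 and 2 to 3 for ligands, 3 to 7 and 7 to 8 for lipoprotein handling, 5 to 7 and 3 to 5 for haem clearance, 4 to 8 and 4 to 5 for endocytosis, and 10 to 11 and 7 for transcription factors.

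Over all tested genes, no shared deviation of same-numbered libraries was seen (correlations from -0.0129 to 0.0284). Such correlations cannot exclude a pairing that is weak or limited to some genes. With the replicate number as a block 2417 genes were called higher and 2357 lower, with the same receptor calls (Marco 1.65, Olr1 1.40, Msr1 0.59, Stab1 -0.17). Of the receptors not called, Cd163 and Colec12 had the fewest counts, 129 to 335 per library, and the widest intervals.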

Other observations

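A wider set was drawn, after its values were known, from the table's own annotation, which gives the term scavenger receptor activity to 46 rows. Of these 21 were tested, 6 of them among the 8 receptors. Of the 21, 5 were called higher and 4 lower, with a median log2 fold change of 0.12. The shares over all tested genes were 17.5% higher and 16.9% lower, and Marco, Msr1 and Stab1 are among the genes called. Outside the genes described above, Fcrls, an Fc receptor-like protein with a scavenger receptor domain, fell (-1.07 ± 0.11) and Enpp1, an ectonucleotidase, fell (-0.52 ± 0.13). Lgals3bp, a galectin-binding glycoprotein, rose by 0.17 ± 0.04. The T cell scavenger receptor family members Cd5 (0.80 ± 0.35) and Cd6 (0.40 ± 0.23) did not pass.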
